A study of Mus musculus with 8 samples.

Results

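The last day of a 4-day differentiation course of mouse oligodendrocytes (OLs) was examined by comparing the mRNA of Day 3 with that of Day 2. The comparison used the 2 libraries of Day 3 and the 2 libraries of Day 2, 4 of the 8 libraries of the series, over the 12208 of 23427 genes in the table with at least 1 FPKM in at least 2 of the 8 libraries. FPKM is the number of sequenced fragments of a gene scaled to transcript length and to the mapped fragments of the library. All libraries came from wild-type (WT) C57BL/6J primary oligodendrocyte precursor cells (OPCs), the dividing progenitors of OLs. The isolation described in the methods took cortex tissue of 3 pups aged 7 days. How many isolations the series used is not given. Isolation used immunopanning, that is, dishes that first hold back unwanted cells and then a dish whose antibody against PDGFRα retains OPCs. Days count from the switch of medium that withdraws the growth factor PDGF-AA and supplies T3, a thyroid hormone, so the Day 2 and Day 3 cells shared genotype, strain, source and medium and differed in time. Replicates 1 and 2 of a day were described as independent experiments, and nothing says whether equal numbers mark 1 isolation of cells, so the p-values measure only the spread between these libraries.

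OPCs that leave the cell cycle first become premyelinating OLs, which spread a wide network of processes, and then mature OLs, which flatten membrane sheets and fill them with myelin. Compact myelin is held together by proteins such as Mbp and consists mostly of lipid, with much cholesterol and galactolipid. Late maturation also involves a change of cytoskeleton, in which the actin network that drove process outgrowth is taken apart, while microtubules carry mRNA and vesicles into the sheets.

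The cells carried the markers of the lineage on both days. Sox10, a transcription factor of all OL stages, was at 476 and 506 FPKM in Day 2 replicates 1 and 2 and at 505 and 367 FPKM on Day 3. The table holds no read counts, so depth was inferred from how low FPKM values step up with each fragment. Replicates 1 and 2 held about 1210000 and 1330000 fragments on Day 2 and about 1080000 and 950000 on Day 3, where replicate 2 was the shallowest library of the series. The 10 most abundant genes took 7.97% and 8.96% of all FPKM on Day 2 and 9.38% and 10.65% on Day 3. The replicates of Day 3 differed slightly more than those of Day 2 at every level of expression: the median gap was 0.46 against 0.42 on the log2 scale in genes under 2 FPKM, and 0.19 against 0.16 in genes of at least 100 FPKM. The median standard error of the late change was 0.43 in genes under 2 FPKM and 0.16 in genes of at least 100 FPKM.

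From Day 2 to Day 3, 30 genes rose and 6 fell at an adjusted p under 0.05, which is 0.246% and 0.0491% of the genes tested. The test was limma on log2(FPKM + 1) with Benjamini-Hochberg adjustment, fitted to all 8 libraries. Adjusted p-values of the called genes lay between 0.0232 and 0.0441. In all 30 rises both Day 3 values were above both Day 2 values, and in all 6 falls both were below. Of all genes tested, 21.1% and 21.8% were apart in these directions. The calls were made from these same values, so this separation is no added evidence for them. A fit with the replicate number as a block, which compares the days within each replicate, called 119 rises and 44 falls (0.975% and 0.36%), among them all 36 genes of the fit without the block. The median of all genes moved by -0.02 on the log2 scale. At an unadjusted p under 0.05, 1773 genes (14.5%) differed. The count of 36 is not stable: it was 0 when either Day 2 library or Day 3 replicate 2 was left out, 0 without either Day 0 library, and 249 without Day 3 replicate 1. It was also 0 when the Day 2 and Day 3 libraries were fitted alone and 8 with a pseudocount of 0.1. With 2 libraries against 2, a permutation test cannot give a p below 0.333. In such bulk samples a change in the number of cells of a type and a change in mRNA per cell cannot be told apart.

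Of the 6 genes with the largest called rises, each was under 5 FPKM in both Day 2 libraries. Ctsc encodes the lysosomal protease cathepsin C (chromosome 7, 88278085 to 88310888, plus strand). It stood at 0.996 and 1.82 FPKM in Day 2 replicates 1 and 2 and at 31.2 and 57.0 FPKM on Day 3. These values correspond to about 3 and 6 fragments on Day 2 and 84 and 134 on Day 3. Its mean was thus 31.3 times higher on Day 3, and its log2(FPKM + 1) rose by 4.19 ± 0.40 (SE, n = 2 libraries per day, adjusted p = 0.0232, limma). On Day 0 and Day 1 no library exceeded 2.97 FPKM. Pdlim2, a PDZ and LIM domain protein that binds actin-associated proteins (chromosome 14, 70164218 to 70177681, minus strand), was at 1.63 and 4.46 FPKM on Day 2 and 39.4 and 69.6 on Day 3, a rise of 3.82 ± 0.51 (adjusted p = 0.0354). Its fragments numbered about 3 and 9 on Day 2 and 65 and 100 on Day 3, so the Day 2 side of its 17.9-fold difference is poorly fixed. Tmod1 encodes tropomodulin 1, which caps the slow-growing end of actin filaments, and was at 0.416 and 0 FPKM on Day 2 and 8.49 and 23.4 on Day 3. Its Day 0 values were 3.01 and 3.40 FPKM, and it fell by 2.07 on the log2 scale from Day 0 to Day 1 (adjusted p = 0.0219). Clmn, a calponin-like membrane protein, was at 0.415 and 0.443 FPKM on Day 2 and at 7.05 and 13.1 on Day 3. Il12rb1, a subunit of the receptors for interleukins 12 and 23, was listed at 0 in 5 of the 6 libraries before Day 3, was at 0.523 FPKM in Day 2 replicate 2, and reached 6.38 and 10.5 FPKM on Day 3. Snord17, a small nucleolar RNA and not an mRNA, was listed at 0 in all 6 earlier libraries and at 8.30 and 4.72 FPKM on Day 3.

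Most other rises started from higher levels, but Eno2 and Diras1 were also under 5 FPKM in both Day 2 libraries. Nudt4, a hydrolase of diphosphoinositol polyphosphates, was at 17.3 and 22.5 FPKM on Day 2 and 92.8 and 215 on Day 3, 7.72 times higher on average (2.78 ± 0.34 on the log2 scale, adjusted p = 0.0354). Dgat2 catalyses the last step of triglyceride synthesis. It was at 55.1 and 57.1 FPKM on Day 2 and at 237 and 194 FPKM on Day 3, a 3.84-fold difference, and had already risen by 2.75 from Day 1 to Day 2 (adjusted p = 0.00432). Eno2, the neuronal form of the glycolytic enzyme enolase, was at 1.87 and 2.85 FPKM on Day 2 and 12.9 and 16.7 FPKM on Day 3. Its fragments numbered about 6 and 10 on Day 2 and 37 and 42 on Day 3. Olfm1, a secreted olfactomedin, had the smallest error of the 20 largest rises: it went from 50.7 and 38.9 FPKM to 144 and 147 FPKM (1.69 ± 0.16, adjusted p = 0.0232). Plk3, a polo-like kinase, Mast3, a microtubule-associated kinase, and Diras1, a small GTPase of the Ras family, rose by 1.69, 1.69 and 1.89. Diras1 was at 1.69 and 2.06 FPKM on Day 2 and at 10.4 and 8.94 FPKM on Day 3. The 10 called rises beyond the 20 largest ranged from 0.96 to 1.60 on the log2 scale, and the most abundant of all called genes, Cd63 and Add1, were among them. Cd63, a tetraspanin of late endosomes, was at 184 and 170.4 FPKM on Day 2 and 411 and 343 on Day 3. Add1, the adducin that links actin to spectrin, was at 144 and 175 FPKM on Day 2 and at 310.1 and 309 FPKM on Day 3, with changes of 1.1 and 0.81 in the replicates. The others, chosen here after their values were seen, were Plat (tissue plasminogen activator), Desi1, Cdr2l, Tssc4, Atp1b3 (a subunit of the sodium pump), Arl2 (a GTPase that acts in tubulin folding), Atp11a (a phospholipid flippase) and Ddr1 (a collagen receptor kinase).

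**Figure D1:**
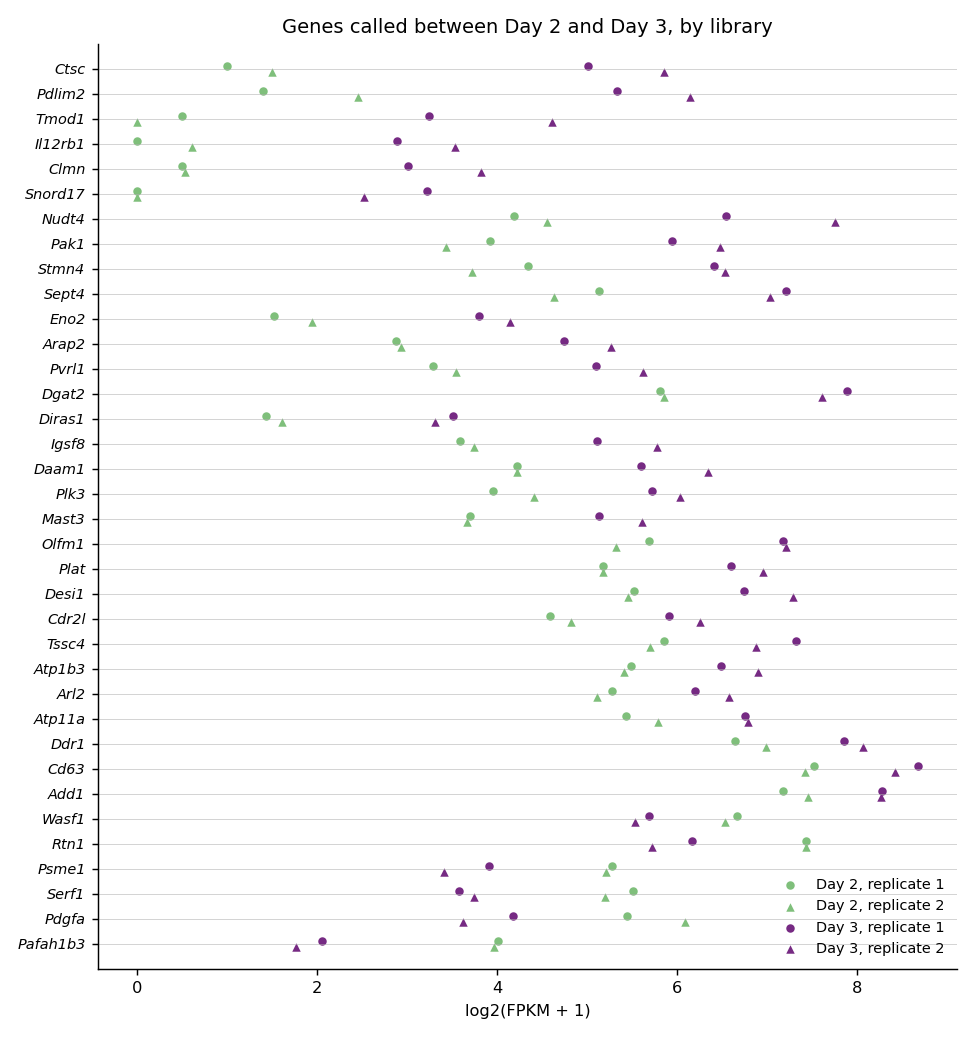
log2(FPKM + 1) of the 36 called genes in each of the 4 libraries, with Day 2 in green and Day 3 in purple and the replicates as circles and triangles. In every gene the 2 days are apart. Ctsc, Pdlim2, Tmod1, Il12rb1, Clmn, Snord17, Eno2 and Diras1 start from under 5 FPKM in both Day 2 libraries.

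Some of the called rises have roles at the cytoskeleton and the cell edge. They were put together after the calls were known and are no fixed list. Pak1, a kinase that acts below Rac and Cdc42 on actin, was at 14.2 and 9.81 FPKM on Day 2 and at 60.8 and 88.3 on Day 3 (6.21-fold, 2.53 ± 0.27, adjusted p = 0.0232). Sept4, a septin that scaffolds the membrane skeleton, was at 34.1 and 23.9 FPKM on Day 2 and 148 and 130.2 on Day 3 (4.79-fold, 2.24 ± 0.24, adjusted p = 0.0232). Stmn4, a stathmin that binds tubulin dimers, went from 19.3 and 12.2 FPKM to 84.1 and 91.5 FPKM. Daam1, a formin that nucleates actin filaments, was at 17.6 and 17.7 FPKM on Day 2 and 47.5 and 80.5 on Day 3. Arap2, a GTPase-activating protein for Arf, and Pvrl1, the adhesion molecule nectin 1, were 4.87 and 4.20 times higher on Day 3. In these 2 genes and Pak1 both Day 0 values were also above both Day 2 values. Arap2 was at 23.1 and 23.6 FPKM on Day 0, at 6.36 and 6.63 on Day 2 and at 25.8 and 37.4 on Day 3. Igsf8, an immunoglobulin-family partner of tetraspanins, had a similar course. It was at 46.4 and 43.8 FPKM on Day 0, fell to 11 and 12.4 FPKM by Day 2 (-1.49 from Day 1 to Day 2, adjusted p = 0.0143) and rose to 33.7 and 53.8 FPKM on Day 3. Igsf8 shares exonic bases with a gene on the other strand, and whether fragments were counted by strand is not given in the sources used here. The same applies to 11 of the 35 called genes that matched the annotation, Tmod1, Plk3, Desi1, Tssc4, Arl2, Atp11a, Ddr1, Pdgfa, Serf1 and Psme1 being the others.

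The 6 falls were a mixed group. Pafah1b3, a catalytic subunit of the platelet-activating factor acetylhydrolase of developing brain, was at 33.0 and 25.3 FPKM on Day 0, at 15.1 and 14.7 on Day 2 and at 3.16 and 2.40 on Day 3. Its fall on the last step was 5.35-fold (-2.08 ± 0.21, adjusted p = 0.0232). Pdgfa encodes the A chain of PDGF, the growth factor that had been taken out of the medium. It was at 10.2 and 7.20 FPKM on Day 0, at 42.7 and 67.1 on Day 2 and at 17.1 and 11.3 on Day 3, so the Day 3 level was 3.87 times lower than the Day 2 level (-1.87 ± 0.28, adjusted p = 0.0441). Serf1, a small factor that acts on amyloid formation, went from 44.6 and 35.7 FPKM to 10.9 and 12.4 FPKM, and Psme1, a subunit of the PA28 activator of the proteasome, from 37.8 and 36.1 to 14.1 and 9.62. Rtn1, a reticulon of the endoplasmic reticulum, was at 173 FPKM in both Day 2 libraries and at 71.0 and 51.8 FPKM on Day 3. Wasf1 (WAVE1), which activates the Arp2/3 complex to build branched actin, was 2.00 times lower on Day 3, with nearly equal changes of -0.97 and -1.0 in the replicates.

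Compact myelin genes were mostly higher on Day 3 than on Day 2, and 4 of 10 passed when the days were compared within replicates. Of 10 genes for compact myelin proteins tested, 9 were higher on Day 3 and 7 were apart with Day 3 higher, against 21.1% of all genes. None passed without the block, and Mobp, Mal, Tspan2 and Mbp did with it, against 0.975% of all genes called higher. The median difference was 0.83 against -0.02 for all genes. Mobp, an abundant late myelin protein, had the largest difference: 35.3 and 99.1 FPKM on Day 2 and 432 and 1227 FPKM on Day 3. Replicate 2 held more Mobp than replicate 1 on both days, while the change was 3.58 in replicate 1 and 3.62 in replicate 2 (3.60 ± 0.71, adjusted p = 0.0862 without and 0.0415 with the block). Mal, a proteolipid of myelin membrane trafficking, was at 3.55 and 1.73 FPKM on Day 2 and 20.1 and 65.4 on Day 3 (adjusted p = 0.0558, and 0.0316 with the block). Mbp, the most abundant of these transcripts, was at 3499 and 6328 FPKM on Day 2 and 8753 and 11945 FPKM on Day 3, a 2.11-fold difference (adjusted p = 0.163, and 0.0318 with the block). Its previous step was larger, 3.46 on the log2 scale from Day 1 to Day 2.

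**Figure D2:**
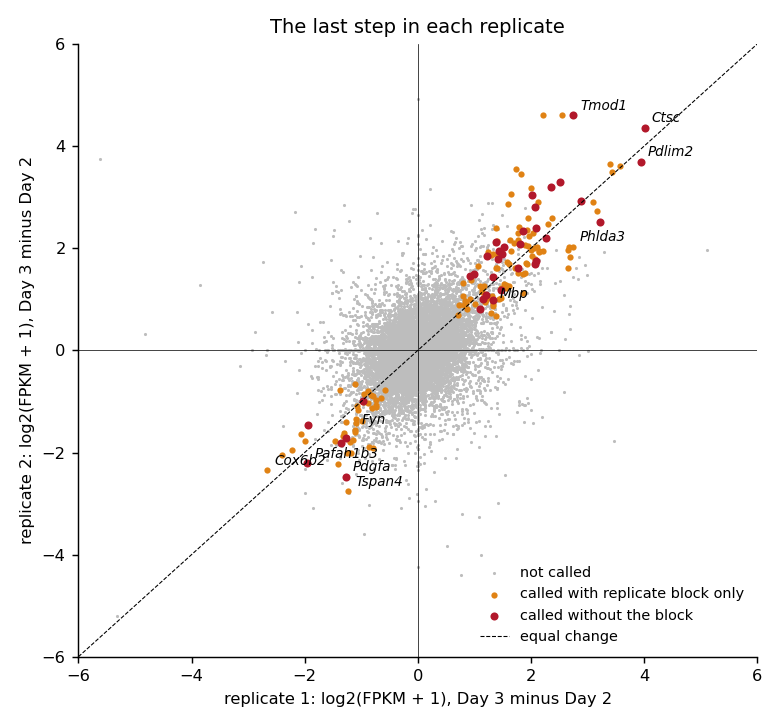
The change from Day 2 to Day 3 in log2(FPKM + 1) in replicate 1 (horizontal axis) and in replicate 2 (vertical axis), with 1 point per gene tested and a dashed line where both are equal. The 36 genes called without the block (red) and the 127 called only with it (orange) lie towards both ends, with Ctsc, Pdlim2 and Tmod1 at the upper right. Calling favours genes whose changes are alike in the replicates, so nearness to the line is partly set by the selection. Some called genes lie off the line, such as Tmod1 (2.75 and 4.61) and Tspan4 (-1.23 and -2.75).

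Genes of the myelin surface were described in the same way. Of 12 tested, 9 were higher on Day 3, 8 were apart (21.1% of all genes), none passed without the block and 3 passed with it (0.975% of all genes), with a median of 0.74. Ermn (ermin), which sits in the outer cytoplasmic lip of myelin, was at 0.933 and 4.48 FPKM on Day 2 and 19.3 and 67.6 on Day 3, or about 4 and 21 against 74 and 226 fragments (adjusted p = 0.0739, and 0.0377 with the block). Mog, an adhesion protein of the outermost lamella, was at 41.8 and 38.7 FPKM on Day 2 and 114 and 146 on Day 3 (adjusted p = 0.0709, and 0.0344 with the block). Mag, an adhesion protein of the innermost membrane that was picked with its values in view, was at 404 and 748 FPKM on Day 2 and 1114 and 1736 on Day 3 (adjusted p = 0.160, and 0.0217 with the block). Gjb1, which encodes the gap junction protein connexin 32, was 2.99 times higher on Day 3 and passed in neither fit.

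The list of enzymes and other genes of mature OLs had the highest median of the lists, 1.34. Its median was 1.14 in replicate 1 and 0.80 in replicate 2. In replicate 2 the lists of p53 targets and cell death genes (0.89) and of microglia markers (1.03) had higher medians. Of 31 members of the mature OL list tested, 29 were higher on Day 3 and 21 were apart, against 21.1% of all genes. Pdlim2 and Sept4 rose in the fit without the block, and 9 members passed with it, against 0.975% of all genes, namely these 2, Car2, Ptgds, Pex5l, Ndrg1, Padi2, Hhip and Qdpr. The list was assembled with earlier results of these data known, so its direction is no independent evidence. Car2, carbonic anhydrase 2, was at 1.83 and 4.62 FPKM on Day 2 and 29.7 and 61.8 on Day 3, and the change was 3.44 and 3.48 in the replicates (adjusted p = 0.0923, and 0.0211 with the block). Ptgds, the prostaglandin D2 synthase, was at 60.2 and 19.6 FPKM on Day 2 and 520.4 and 153 on Day 3. Here replicate 1 was the higher one on both days, and its change of 3.09 was close to the 2.90 of replicate 2 (adjusted p = 0.0923, and 0.0135 with the block). Pex5l, a relative of the peroxisomal import receptor, went from 7.22 and 7.56 FPKM to 39.4 and 46.3 FPKM (adjusted p = 0.0558, and 0.0318 with the block). Outside these lists, Paqr8, a membrane progestin receptor, was at 25.1 and 62.2 FPKM on Day 2 and 111 and 256 on Day 3, the third largest difference among genes with a mean of at least 100 FPKM over both days (adjusted p = 0.0965, and 0.0362 with the block). Erbb3, the neuregulin receptor, was at 32.9 and 12 FPKM on Day 0, at 4.49 and 0.934 on Day 2 and at 31.0 and 46.2 on Day 3 (adjusted p = 0.113, and 0.0399 with the block). Kit, the receptor for stem cell factor and also picked with its values in view, was at 8.05 and 12.9 FPKM on Day 0, at 1.59 and 1.60 on Day 2 and at 9.41 and 22.6 on Day 3 (adjusted p = 0.0709, and 0.0415 with the block). In both receptors every Day 2 value was below every Day 0 and Day 3 value.

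Genes of the premyelinating stage were mostly lower on Day 3, and 1 of them passed in that direction with the block. Of 20 tested, 16 were lower and 12 were apart in that direction, against 21.8% of all genes, with a median of -0.75, which was -0.37 in replicate 1 and -1.08 in replicate 2. No member passed without the block. With it, Fyn was called lower and Kndc1 higher, against 0.36% and 0.975% of all genes. Fyn is a Src-family kinase that passes signals from the axon to Mbp mRNA translation. It was at 606 and 503 FPKM on Day 2 and at 279 and 171 on Day 3 (-1.33 ± 0.23, adjusted p = 0.0702, and 0.0405 with the block). Bcas1, a marker of OLs that are starting to myelinate, was at 1566 and 1363 FPKM on Day 2 and at 809.5 and 360.4 on Day 3 (adjusted p = 0.107, and 0.067 with the block). Bmp4 was at 61.3 and 83.1 FPKM on Day 1, at 30.9 and 9.79 on Day 2 and at 9.65 and 2.62 on Day 3. The sialidase gene Neu4 was at 10.2 and 6.00 FPKM on Day 2 and at 5.09 and 1.16 on Day 3. Enpp6, a choline phosphodiesterase, and Gpr17, a receptor of committed precursors, both chosen after their values were seen, were 2.12 and 1.99 times lower on Day 3 with adjusted p-values of 0.183 and 0.0900. Kndc1, a guanine nucleotide exchange factor of the same list, went the other way, from 37.3 and 54.8 FPKM to 90.9 and 114 FPKM (adjusted p = 0.0867, and 0.0426 with the block).

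The other falls that passed only with the block included extracellular and membrane proteins. Tspan4, a tetraspanin of migrating cells, had risen to 203 and 266 FPKM on Day 2 and was at 86.3 and 38.7 FPKM on Day 3 (-1.99 ± 0.42, adjusted p = 0.0900, and 0.0318 with the block). It shares exonic bases with Chid1 on the other strand. Tnr, the matrix glycoprotein tenascin R, was at 400.1 and 278 FPKM on Day 2 and 173 and 79.7 on Day 3 (adjusted p = 0.0931, and 0.0450 with the block). The proteoglycan versican, Vcan, was at 31.9 and 16.8 FPKM on Day 2 and 14.4 and 6.56 on Day 3 and passed in neither fit. Cox6b2, a testis-type subunit of cytochrome oxidase, was at 5.34 and 4.09 FPKM on Day 2 and listed at 0 in both Day 3 libraries (adjusted p = 0.0558, and 0.0318 with the block). Ier5l, of the immediate early response family, went from 3.69 and 2.89 FPKM, about 7 and 6 fragments, to 0. A count of 0 in these shallow libraries allows up to 3 fragments. Rsph3b, a radial spoke protein with a close copy in Rsph3a, and Gm3893, a predicted gene, were 5.65 and 5.34 times lower, and fragments of the copies may have been divided between them. Sgk1, a kinase induced by steroids and insulin, and Snx18, a sorting nexin, chosen after their values were seen, were 2.90 and 2.53 times lower and also passed only with the block.

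Among 22 transcription factors of the lineage, 15 were lower on Day 3, 7 of them apart (21.8% of all genes), and 3 were apart in the other direction (21.1% of all genes), with a median of -0.21. Sox11, a factor of immature cells, was at 15.7 and 10.8 FPKM on Day 2 and 6.94 and 4.57 on Day 3 and passed only with the block (adjusted p = 0.116, and 0.0473 with it). Sox6, which holds OPCs in the progenitor state, was at 51.3 and 23.4 FPKM on Day 2 and 17.3 and 9.18 on Day 3. Zfp536, a zinc finger repressor, was at 9.86 and 12.3 FPKM on Day 2 and at 25.8 and 31.5 FPKM on Day 3. Tcf7l2, which acts in the passage to differentiated OLs, was at 96.7 and 95.4 FPKM on Day 2 and 68.3 and 42.0 on Day 3 (adjusted p = 0.139, and 0.10 with the block). Olig2 was at 143 and 165 FPKM on Day 2 and 147 and 122 on Day 3, and the days overlapped. Of 20 genes of progenitor identity none passed in either fit (median -0.15). Pdgfra, the receptor used for panning, stayed far under its Day 0 level of 490.3 and 396 FPKM, with 28.8 and 5.39 FPKM on Day 2 and 29.2 and 6.53 on Day 3.

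The cytoskeleton lists held genes that moved in opposite directions. Of 21 tubulin and microtubule genes, 9 were apart with Day 3 higher and 5 with Day 3 lower, against 21.1% and 21.8% of all genes. Stmn4 rose, and Tuba4a and Tubb3 passed with the block, which called 0.975% of all genes higher. Tuba4a, an alpha-tubulin, was at 0 and 2.99 FPKM on Day 2 and 5.47 and 13.2 on Day 3. Tubb3, a beta-tubulin often used to mark neurons, was at 128 and 58.4 FPKM on Day 2 and 231 and 113 on Day 3, so its days overlapped, while the change was 0.84 in replicate 1 and 0.94 in replicate 2. Of 25 genes of actin, septins and process outgrowth, 8 were apart with Day 3 higher and 11 with Day 3 lower, and the median of -0.02 became 0.02 under median ratio scaling. Sept4 rose and Wasf1 fell, and Ermn and Cdc42ep1 passed with the block (0.975% of all genes called higher and 0.36% lower). Gsn, the actin-severing protein gelsolin, was at 29.9 and 25 FPKM on Day 2 and 67.0 and 165 on Day 3 (adjusted p = 0.0867, and 0.0564 with the block). Cdc42ep2, an effector of Cdc42, was at 1.1 and 11.1 FPKM on Day 2 and 19.7 and 44.8 on Day 3. The actins themselves, chosen after their values were seen, were lower without passing. Actb went from 2007 and 2011 FPKM to 1421 and 1083, and Actg1 from 1513 and 1639 to 842 and 658.

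**Figure D3:**
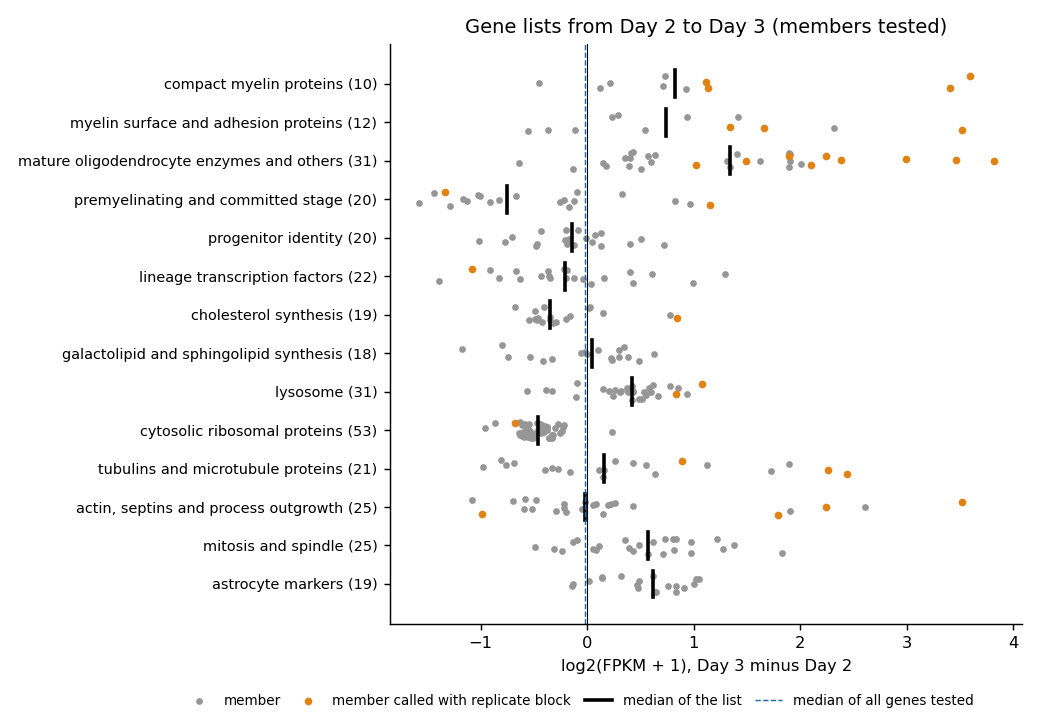
Difference in log2(FPKM + 1) between Day 3 and Day 2 of each member tested in 14 gene lists, with the number of members in parentheses, the median of each list as a black bar and the median of all genes as a dashed line. Mature OL, myelin, lysosome, mitosis and astrocyte lists lie to the right and premyelinating, cholesterol and ribosomal lists to the left. Orange points are members called with the replicate block.

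Lipid genes did not move as 1 group. Cholesterol synthesis had peaked on Day 1 (median change of 1.29 from Day 0 to Day 1 and -0.56 from Day 1 to Day 2) and 14 of its 19 genes were lower again on Day 3, 12 of them apart (21.8% of all genes), with a median of -0.35. None of the lower genes passed in either fit. Mvd, the decarboxylase of mevalonate diphosphate, was at 50.4 and 80.6 FPKM on Day 2 and 46.9 and 33.2 on Day 3, and Fdft1, squalene synthase, at 76.3 and 97.2 on Day 2 and 60.9 and 56.8 on Day 3. Against this trend, Hsd17b7, which reduces a keto group late in the pathway, was at 104 and 135 FPKM on Day 2 and 183 and 249 on Day 3 and passed with the block (adjusted p = 0.110, and 0.0384 with it), and Ebp, a sterol isomerase, was 1.61 times higher. Insig1, which holds the sterol sensor in the endoplasmic reticulum, was at 104 and 123 FPKM on Day 2 and 71.7 and 54.0 on Day 3. In the list of 18 galactolipid and sphingolipid genes the median was 0.05. Its largest differences were lower values of Sgms1, St3gal5 and Ugcg, enzymes for sphingomyelin, ganglioside and glucosylceramide, which were 2.67, 1.89 and 1.73 times lower and did not pass.

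Lysosomal genes were mostly higher on Day 3. Of 31 tested, 26 were higher on Day 3 and 23 were apart in that direction, against 21.1% of all genes, with a median of 0.43, which was 0.38 in replicate 1 and 0.51 in replicate 2. Ctsc is not on this list. Cd63 rose, and Ctsa, the protective protein cathepsin A, passed with the block, which called 0.975% of all genes higher. Ctsa was at 35.8 and 37.4 FPKM on Day 2 and 66.1 and 65.9 on Day 3 (0.83 ± 0.14, adjusted p = 0.0682, and 0.0450 with the block). Npc2, which exports cholesterol from lysosomes, was at 41.5 and 49.96 FPKM on Day 2 and 83.2 and 93.4 on Day 3, Lgmn, the protease legumain, at 66.6 and 78.1 on Day 2 and 128 and 134 on Day 3, and Lamp1, a membrane protein of lysosomes, at 407 and 421 on Day 2 and 593 and 682 on Day 3. These 3 genes passed in neither fit, and their adjusted p-values lay between 0.0524 and 0.0601 with the block.

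Lysosomal genes share a short element in their promoters, to which the factor TFEB binds and whose core is the E-box CACGTG. The reference sequences of RefSeq promoters (GRCm38.p6, 250 bases before to 50 bases after the start site) covered 24 of the 31 genes, and 10 of them (41.7%) held CACGTG, against 12% of the 8963 tested genes with a promoter. The sequence reads the same on both strands. Stretches before the start site are given for the 5 genes with the largest differences among those with an E-box before the start site and with both Day 3 values above both Day 2 values, from 5′ to 3′ on the strand of the gene, with the E-boxes in capitals. Ctsl encodes cathepsin L and Mcoln1 a calcium channel of lysosomes. The stretches lie at chr12:102439106-102439171 (minus strand), chr2:164833731-164833772 (plus), chr13:64370721-64370770 (minus), chr8:13159070-13159160 (plus) and chr8:3500418-3500509 (plus). Their start sites are those of RefSeq and can lie inside the gene span annotated by GENCODE. The stretches of Lgmn, Ctsa and Ctsl are wholly inside that span, and the stretch of Mcoln1 is partly inside it.
Lgmn: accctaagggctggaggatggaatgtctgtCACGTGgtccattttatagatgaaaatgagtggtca
Ctsa: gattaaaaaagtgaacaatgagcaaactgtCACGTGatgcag
Ctsl: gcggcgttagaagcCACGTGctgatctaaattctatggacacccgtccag
Lamp1: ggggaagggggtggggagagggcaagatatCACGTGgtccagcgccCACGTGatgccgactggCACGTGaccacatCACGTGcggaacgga
Mcoln1: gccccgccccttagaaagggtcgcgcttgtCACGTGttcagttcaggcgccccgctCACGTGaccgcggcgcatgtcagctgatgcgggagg

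Lamp1 carries 4 copies within the 61 bases before its start site and Mcoln1 carries 2. The median late difference of the lysosomal genes was 0.46 with the E-box and 0.45 without it. In the cholesterol list, 13 of 14 genes with a promoter held the CCAAT box (either strand), against 43.8% of all tested genes with a promoter. The core CTGGNAC of the binding sequence of Myrf, the main regulator of myelin genes, was found in 5 of the 21 promoters of called rises (23.8%) and in 21.0% of all promoters of tested genes. In all 11 letter patterns were searched, after the late changes were known. The pair of CCAAT boxes of Mvd (chr8:122443423-122443512, minus strand) and of Dhcr7, the last reductase of the pathway (chr7:143830099-143830199, plus strand), are shown in capitals as they read on the strand of the gene. The Dhcr7 stretch lies inside the annotated span of the gene, before an internal RefSeq start site.
Mvd: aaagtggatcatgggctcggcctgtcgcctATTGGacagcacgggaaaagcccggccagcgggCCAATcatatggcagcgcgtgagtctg
Dhcr7: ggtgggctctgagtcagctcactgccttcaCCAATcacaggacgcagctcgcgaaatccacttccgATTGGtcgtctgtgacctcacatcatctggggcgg

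Ribosomal protein genes were lower by a small amount. Of 53 cytosolic ribosomal protein genes, 52 were lower on Day 3 and 51 were apart in that direction, against 21.8% of all genes. The median was -0.47, with -0.36 in replicate 1 and -0.57 in replicate 2. For comparison, the median was -0.15 over all genes with a mean of at least 100 FPKM and -0.02 over all genes tested. No member passed without the block and Rps19 did with it, against 0.36% of all genes called lower with the block. Rps19 was at 149 and 185 FPKM on Day 2 and 99.0 and 108 on Day 3 (-0.68 ± 0.15, adjusted p = 0.103, and 0.0452 with the block). The largest differences were those of Rpl34 and Rpl37, 2.08 and 1.78 times lower. The list had also been lower on the previous steps, with medians of -0.44 from Day 0 to Day 1 and -0.58 from Day 1 to Day 2. Many ribosomal protein genes have processed pseudogenes to which fragments can be assigned.

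Markers of dividing cells stayed low. Of 25 genes of mitosis and the spindle, 20 were higher on Day 3 than on Day 2 and 15 were apart, against 21.1% of all genes, with a median of 0.57, but none passed in either fit. Mki67, the proliferation marker Ki-67, was at 133 and 107 FPKM on Day 0, at 0.896 and 0.447 on Day 2 and at 3.64 and 3.0 on Day 3. Top2a, topoisomerase II alpha, was at 2.68 and 0.864 FPKM on Day 2 and at 5.27 and 5.40 FPKM on Day 3. Cdc20, an activator of the anaphase-promoting complex, rested on about 1 and 6 fragments on Day 2 and 15 and 11 on Day 3.

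Markers of other cell types were measured beside these changes. Of 19 astrocyte markers tested, 17 were higher on Day 3 and 3 were apart, a share below the 21.1% of all genes, with a median of 0.62, and none passed in either fit. Their summed level was 635 and 1375 FPKM in Day 2 replicates 1 and 2 and 818 and 2095 FPKM on Day 3. Replicate 2 thus held more astrocyte mRNA on both days: Gfap, the astrocyte filament protein, was at 27.3 and 409 FPKM on Day 2 and at 45.5 and 603 on Day 3. Glul, glutamine synthetase, which OLs also express, was at 98.0 and 134 FPKM on Day 2 and at 159.8 and 335 FPKM on Day 3, and Clu, clusterin, at 17.3 and 69.4 and then 43.1 and 125. Of 17 microglia and macrophage markers, 3 passed the filter and 13 were listed at 0 in all 4 libraries, and their sum did not exceed 13.0 FPKM. Endothelial markers (3 of 12 tested) and mural and fibroblast markers (4 of 16) summed to at most 5.51 and 8.93 FPKM. Of the Schwann cell markers 4 of 9 were tested, and Sox10 made up nearly all of their sum. Of 18 neuron markers 9 were tested, and Tubb3 took most of their sum. The part of other cells in the late changes was not tested.

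Several genes followed in the study changed on the middle step and did not pass on the last. Cnp, an enzyme of non-compact myelin, was at 2072 and 2459 FPKM on Day 2 and 1962 and 2160.1 on Day 3, after a rise of 0.89 on the log2 scale from Day 1 to Day 2 (adjusted p = 0.0369). The late difference of Cnp was -0.13 ± 0.18, with an adjusted p of 0.802, and 0.19 under quantile normalization. Secisbp2l, the SECIS-binding protein studied in this series, was at 207 and 299.6 FPKM on Day 2 and 315 and 357 FPKM on Day 3 (0.43 ± 0.19, adjusted p = 0.340). Its middle step had been 2.00 (adjusted p = 0.0033). Tppp, a tubulin polymerization protein of OLs, was at 280.2 and 383 FPKM on Day 2 and 488 and 531 on Day 3, with a late difference of 0.63 ± 0.31 after a middle step of 3.95. Larp6 passed on neither step. This RNA-binding protein of collagen mRNA rested on about 0 and 3 fragments on Day 2 and 8 and 13 on Day 3 (0 and 0.976 FPKM against 3.18 and 5.88), and did not pass (adjusted p = 0.0965, and 0.0527 with the block).

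**Figure D4:**
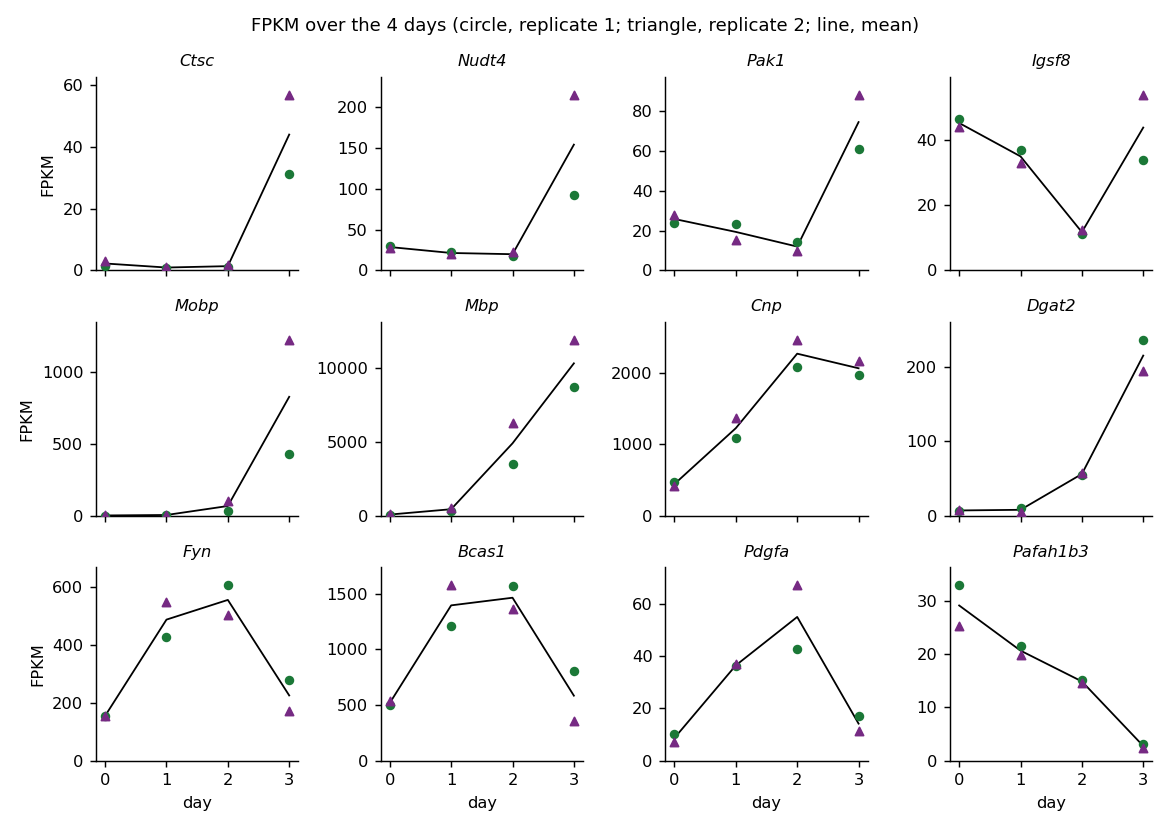
FPKM of 12 genes on Day 0 to Day 3, with replicate 1 as circles, replicate 2 as triangles and their mean as a line, and each vertical axis from 0. Ctsc and Nudt4 rise between Day 2 and Day 3. After a low Day 2, Igsf8 returns to about its Day 0 level and Pak1 rises above its own. Cnp levels off, and Fyn, Bcas1 and Pdgfa are lower on Day 3 than on Day 2.

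Whether a gene changed more on the last step than on the one before was tested as a contrast of both steps in the same fit. The 2 steps share the Day 2 libraries, so a low or high Day 2 value alone makes them differ. No gene passed, with or without the block (0 of 12208, 0% of the genes tested). The smallest adjusted p was 0.0974 without and 0.0753 with the block, and 1233 genes (10.1%) had an unadjusted p under 0.05. The count of called genes was 475 on the middle step, 264 higher and 211 lower, and 36 on the last step. Side by side, the log2 difference of Ctsc was 0.29 on the middle step and 4.19 on the last, and the pairs for other genes were Sept4 2.02 and 2.24, Mobp 3.60 and 3.60, Mbp 3.46 and 1.12, and Tspan4 2.23 and -1.99.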

How the data were processed

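Stranded, paired-end mRNA libraries of WT C57BL/6J OPCs were sequenced on a MiSeq system at each of 4 days of culture, 2 libraries a day. Reads were handled by the authors in OmicSoft ArrayStudio, with mm10 named in the submitters' notes, and the deposited table gives 1 FPKM column per library, none pooled. FPKM scales each library to its mapped fragments and each gene to its length, so it is relative within a library. The aligner, the gene model and the use of strand are not given in the sources used here. The labels and the paper's methods describe the culture medium and the RNA kit differently. The count test named in the methods needs counts and was not used.

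Days and replicate numbers came from the labels. A gene was tested if 2 or more of the 8 libraries reached 1 FPKM. Its log2(FPKM + 1) entered a linear model with day as a factor over all 8 libraries, fitted by limma 3.58.1 under R 4.3.3 with eBayes and a trend. On this scale the change of low genes is understated. Equal replicate numbers in the labels went with shared deviations (Pearson r across genes of the replicate difference between days from 0.16 to 0.29 over the 6 pairs of days), so the fit with the replicate number as a block is given beside results it changes. Whether a shared number marks a shared isolation is not stated. Depth was estimated from FPKM steps of low genes with 1 annotated transcript (GENCODE M21, GRCm38), and fragment numbers are given for genes whose values are whole multiples within a tolerance of 0.12 fragments. The step taken as 1 fragment was the largest that fitted. It was not checked against transcript length, so fragment numbers can be too low. Fragment numbers cover counting error only. Alternatives were a pseudocount of 0.1, other filters, scalings and weights, a fit of only the days compared, and each library left out. Python 3.11.15, pandas 2.3.3, numpy 2.4.6 and matplotlib 3.10.9 were used for the other steps.

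The comparison, the gene lists and the tests were chosen with earlier results of these data known. Named genes are the 20 largest rises and the 10 largest falls called (6 were called), the 5 largest per direction called only with the block, up to 4 members of largest difference per list, 9 genes of the study, and the 3 largest per direction of genes with at least 100 FPKM. All other genes were picked with their values in view, among them Gfap, Lamp1, Kndc1, Cdc42ep1, Padi2, Qdpr, Ctsl, Mcoln1 and Dhcr7. Some genes that the rule names are not reported here. Promoter sequences are from RefSeq (GRCm38.p6).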

Additional observations from a re-analysis of the deposited data

How the results depend on the processing

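The count of 36 genes called on the last step was 8 with a pseudocount of 0.1, 91 with vooma precision weights, 19 with array weights, 163 with the replicate block, 161 with the block and median ratio scaling, 244 at an adjusted p under 0.1, and 0 without the filter, with only the Day 2 and Day 3 libraries and with eBayes without a trend. Leaving out 1 library gave counts from 0 to 249. The causes were not tested. All 36 genes kept their direction under every alternative in which they were tested. The contrast of the last and the middle step gave 0 genes under all alternatives but 1, and 3 without Day 3 replicate 1, so the range with a library left out was 0 to 3. With the replicate block, beside the calls named above, no call without the block was lost. Reversed directions were those of genes not called: Cnp was at 0.19 under quantile normalization, and with 1 library left out Pdgfra ranged from -0.98 to 1.24 (below 0 without Day 2 replicate 2 or Day 3 replicate 1), Gfap from -1.29 to 2.57 (below 0 without Day 2 replicate 1 or Day 3 replicate 2) and Sox10 from -0.42 to 0.041 (above 0 without Day 3 replicate 2). Depth, 950000 to 1520000 fragments per library, limits what can be called in genes of few fragments.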

Other observations

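Other gene lists held a few genes with large late differences and none that passed without the block. In the list of immediate early genes the median was 0.13, Jun, a subunit of AP-1, passed with the block (18.3 and 22.9 FPKM on Day 2, 46.9 and 48.8 on Day 3, adjusted p = 0.0739 without and 0.0482 with it), and Arc was at 1.34 and 4.91 FPKM on Day 2 and 14.7 and 15.0 on Day 3. Among 19 targets of p53 and cell death genes, 17 were higher on Day 3 and 4 of these were apart, the same share as the 21.1% of all genes. The list's median was 0.51, which was 0.11 in replicate 1 and 0.89 in replicate 2. Phlda3, a p53 target that inhibits Akt, passed with the block (5.04 and 34.3 FPKM, then 39.4 and 143, adjusted p = 0.286 without and 0.0415 with it). In the list of ATF4 targets, Ddit3 was 2.65 times higher and Asns, asparagine synthetase, 2.46 times lower, and neither passed. Of 21 selenoprotein genes and their synthesis factors, 17 were lower and none passed. Sepp1, selenoprotein P, was the largest difference of that list, at 1.63 and 1.87 FPKM and then 6.38 and 17.1. Steap3, an endosomal iron reductase, was at 1.66 and 4.17 FPKM on Day 3 and had no fragment on Day 2, where both values were 0.

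Other values stood out, in genes chosen after their values were seen. Hhip, a hedgehog-binding protein, was at 5.15 and 5.54 FPKM on Day 2 and 15.0 and 19.0 on Day 3, and Ndrg1, a stress-responsive gene whose loss causes a demyelinating neuropathy, at 0.568 and 0 and then 4.44 and 4.33. Both passed only with the block. The largest difference of any gene tested was that of Eif3j2, a subunit of translation initiation factor 3, at 39.0 and 35.7 FPKM on Day 2 and 4.04e-07 and 8.56e-08 on Day 3. It was not called (adjusted p = 0.224) and was also near 0 in Day 0 replicate 2 and Day 1 replicate 1. Its close copy Eif3j1 was at 12 and 16.0 FPKM on Day 2 and 48.8 and 41.5 on Day 3, and how fragments were divided between the copies is not given in the sources used here, so both values are uncertain.

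In the remaining lists no member passed in either fit except Tnr in the list of the extracellular matrix. In that list of 21 genes the median was -0.24, and 8 were apart with Day 3 lower (21.8% of all genes). Among 21 genes of endoplasmic reticulum chaperones and the unfolded protein response, none was apart with Day 3 higher and 8 were with Day 3 lower. The shares of all genes were 21.1% and 21.8%, and the median of the list was -0.16. Of 18 genes of fatty acid synthesis, 14 were lower (median -0.13), and of 43 nuclear genes of oxidative phosphorylation, 26 were lower (median -0.06, and 0.02 under quantile normalization). Of 24 genes of DNA replication 11 were apart with Day 3 higher and 2 with Day 3 lower (21.1% and 21.8% of all genes), with a median of 0.22. The median was 0.24 over 13 genes of iron handling, -0.12 over 11 genes of the thyroid hormone response and 0 over 12 genes of the interferon response.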
